A study of Astyanax mexicanus with 12 samples.

Results

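The response of the ovary to starvation was compared between 2 populations of Astyanax mexicanus, a fish that lives as eyed surface fish in rivers and as blind cavefish in caves, here the Tinaja cave population. Bulk RNA of right ovaries was sequenced from adult females about 660 days after fertilisation, all carrying the WT genotype label. There were 12 libraries in 4 groups of 3: non-treated (control) surface fish, starved surface fish, non-treated (control) Tinaja cavefish and starved Tinaja cavefish. The quantity of interest is a difference of differences, namely the log2 change from control to starved in Tinaja cavefish minus the same change in surface fish. A positive value means that the change with starvation was higher in Tinaja cavefish, and a negative value means that it was higher in surface fish. The comparison takes in all 12 libraries and every gene of the authors' scaled expression table, which is 14627 of the 27420 genes in the count table. The sources used here do not state the length of the fast.

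A fish ovary holds oocytes at many stages, each wrapped in a follicle of granulosa and theca cells. Oocytes stock ribosomes, messenger RNA and egg coat proteins for the embryo, while follicle cells carry the gonadotropin receptors and make sex steroids. Egg production is costly, and food shortage is known to curb it in many fishes. Cavefish of this species live with scarce food and are known for resistance to starvation. A gene can enter the comparison by responding in surface fish, by responding in Tinaja cavefish, or by responding in opposite directions in both. The values for both populations are therefore given side by side throughout. They are not independent of the difference, which is computed from the same libraries.

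Surface fish libraries held 7152581 to 10198881 reads assigned to genes, and Tinaja libraries 5949155 to 7973058. In a library, 3 reads corresponded to 0.323 to 0.492 CPM (reads per gene on the scale of a common library size, set with trimmed mean of M values factors). Nothing in the labels ties a replicate to its own animal, so the p-values reflect the spread among these libraries, which may be technical. Defining oocyte markers were abundant in every group, with nanos1 at 0 reads in all 12 libraries. The 30 tested oocyte and germline genes summed to 11040 to 15393 CPM per library, and the 15 tested granulosa genes to 28.2 to 75.8 CPM. Some libraries stood apart from their group in markers of connective tissue. The mean log2 CPM of 13 stroma markers was 4.65 in Tinaja control 1 against 3.02 and 3.84 in the other Tinaja controls. It was 3.98 in Tinaja starved 2 against 2.15 and 3.22 in the other starved Tinaja libraries. In surface fish, control 1 stood at 3.23 against 2.25 and 2.62 in the other controls, and starved 1 at 1.30 against 2.08 and 1.95 in the other starved libraries.

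The response differed between the populations in 10 genes, which is 0.0684% of the 14627 tested (edgeR quasi-likelihood F test, Benjamini-Hochberg adjusted p under 0.05, called below). In 7 genes (0.0479%) the difference was negative and in 3 (0.0205%) it was positive. By the same rule, 466 genes (3.19%) were called for starvation within surface fish and 3 genes (0.0205%) within Tinaja cavefish. For 2264 genes (15.5%) the unadjusted p of the difference was under 0.05, a cut that makes no allowance for the number of genes tested. Of these, 1208 (8.26%) had a positive difference and 1056 (7.22%) a negative one. A positive difference can come from a fall in surface fish alone, and a negative one from a rise there. DESeq2 on the same genes called 237 of the 14590 to which it gave an adjusted p (1.62%), among them all 10. Leaving out single libraries moved the edgeR count of 10. It was 52 without surface control 1, 26 without Tinaja control 1, 16, 16 and 22 without surface starved 1, 2 and 3, and 21 without Tinaja starved 1. Without any other single library it was 8 to 11. With Tinaja control 1 and Tinaja starved 2 both left out, a choice made after seeing the data, it was 33.

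Of the 10 genes, 5 carry a symbol: SHANK3, spg11, BAHCC1, PM20D2 and letm1. The other 5 are known in the files only by an identifier, and no role is given for them here. In the account that follows the 10 genes are arranged by the population whose own response was called.

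**Figure D1:**
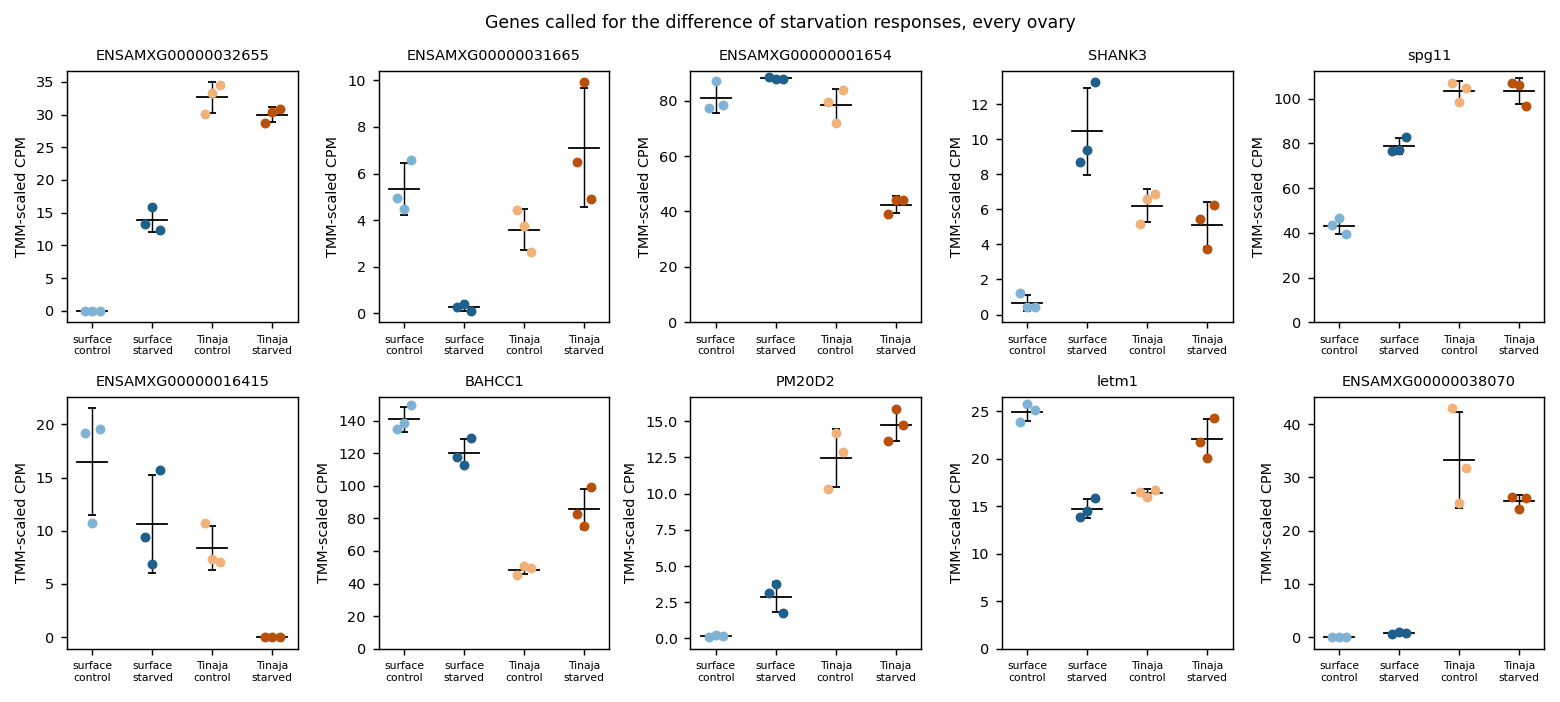
CPM in each ovary library for the 10 genes whose starvation response differed between the populations. Each panel has a linear axis that starts at or below 0, points are libraries, and bars are the mean ± SD of 3 libraries in each of the 4 groups. In the panel of spg11 the surface controls lie at 39.5 to 46.7 CPM and the starved surface libraries at 76.7 to 82.9 CPM, while both Tinaja groups lie between 96.8 and 107 CPM.

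The gene with the smallest p was ENSAMXG00000032655. It had 0 reads in all 3 surface controls, and 13.3, 15.8 and 12.4 CPM in the starved surface libraries, from 98, 118 and 115 reads. The Tinaja controls held 30.0, 33.3 and 34.5 CPM and the starved Tinaja libraries 28.8, 30.4 and 30.8 CPM. So the gene was without a read in one group and present in the other 9 libraries, and the Tinaja groups overlapped. Measured against a floor of 3 reads over the control group, the starved surface libraries were 105-fold higher (adjusted p = 6.79e-07), whereas the ratio in Tinaja cavefish was 0.918. The adjusted p of the difference was 2.9e-06, and the ratio of the 2 folds with this floor was 114.

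ENSAMXG00000038070 had the same layout at a lower level in surface fish. No surface control had a read, and the starved surface libraries held 4, 7 and 8 reads, or 0.543, 0.937 and 0.862 CPM. In Tinaja cavefish the controls held 43.0, 25.1 and 31.8 CPM and the starved libraries 26.3, 24.1 and 26.1 CPM. Every Tinaja library was thus far above every surface library, and feeding did not part the Tinaja groups. The starved surface libraries, with 19 reads in all, stood 6.03-fold above the floor of 3 reads over the controls (adjusted p = 0.0197). That fold leaves out the counting error of the 19 reads. The ratio in Tinaja cavefish was 0.765, and the difference had an adjusted p of 0.0383. The difference was not called under 11 of 23 alternative settings, with adjusted p-values of 0.0527 to 0.191. The surface response was not called with limma voom (adjusted p = 0.0735) or without surface control 2 (adjusted p = 0.0549) or 3 (adjusted p = 0.054). In levels set across the populations, expression and unequal mapping of reads cannot be told apart.

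PM20D2, a member of a family of metal-dependent peptidases, was low in surface controls, at 0.121, 0.271 and 0.137 CPM, from 1, 2 and 1 reads. Starved surface libraries held 3.12, 3.75 and 1.72 CPM. Tinaja controls held 10.3, 14.2 and 12.9 CPM, and starved Tinaja libraries 13.6, 15.9 and 14.8 CPM. The surface groups did not overlap, the Tinaja groups did, and the lowest Tinaja library stood above the highest surface library. The log2 change was 3.90 in surface fish (adjusted p = 0.00289) and 0.24 in Tinaja cavefish, a difference of -3.66 ± 0.522 (SE, 95% interval -4.79 to -2.53, adjusted p = 0.0192). Both the surface change and the difference rest on 4 reads in the surface control group. The difference was not called under 6 of 23 alternative settings, voom and 5 that leave out a library, with adjusted p-values of 0.0511 to 0.189. A second gene of the same symbol, ENSAMXG00000043881, held means of 9.03 and 6.21 CPM in control and starved surface fish and 21.5 and 17.9 CPM in Tinaja cavefish. Its difference was 0.28 (adjusted p = 0.674), and the sources used here do not state how reads of the 2 copies were told apart.

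SHANK3, best known in mammals as a scaffold of excitatory synapses, held 1.21, 0.407 and 0.411 CPM in surface controls, from 10, 3 and 3 reads. Starved surface fish held 8.69, 9.37 and 13.2 CPM. The Tinaja controls held 5.15, 6.60 and 6.88 CPM and the starved Tinaja libraries 5.44, 3.72 and 6.24 CPM. Starved surface fish were above, and control surface fish below, every Tinaja library. The log2 change was 3.89 in surface fish (adjusted p = 0.0023) and -0.28 in Tinaja cavefish, with a difference of -4.17 ± 0.535 (adjusted p = 0.0115). Both the surface change and this difference rest on 16 reads in the surface control group.

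The level of spg11 also rose in surface fish. This gene encodes spatacsin, which in human cells works with spastizin (ZFYVE26) and the AP-5 adaptor complex in the renewal of lysosomes. Surface controls held 43.5, 46.7 and 39.5 CPM and starved surface fish 76.7, 77.0 and 82.9 CPM. Both Tinaja groups stood above all of these, with 107, 98.6 and 105 CPM in controls and 107, 106 and 96.8 CPM in starved fish. The log2 change was 0.87 in surface fish (adjusted p = 0.000781) and 0.00 in Tinaja cavefish, a difference of -0.87 ± 0.111 (95% interval -1.11 to -0.63, adjusted p = 0.0115).

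The genes so far rose in surface fish, while letm1 and ENSAMXG00000031665 fell there. The protein of letm1 sits in the inner mitochondrial membrane and takes part in cation exchange. Its levels were 23.9, 25.8 and 25.1 CPM in surface controls and 13.9, 14.5 and 15.8 CPM in starved surface fish. In Tinaja cavefish they were 16.5, 15.9 and 16.7 CPM in controls and 21.8, 20.1 and 24.3 CPM in starved fish. Neither pair of groups overlapped, and the order of control and starved was opposite in the 2 populations. The fall in surface fish was called (log2 -0.76, adjusted p = 0.0197), the change of 0.43 in Tinaja cavefish was not (adjusted p = 0.965), and the difference was 1.19 ± 0.169 (adjusted p = 0.0192). The fall in surface fish was not called without surface control 2 (adjusted p = 0.0692) or 3 (adjusted p = 0.0608), and the difference was not called under 6 of 23 alternative settings (adjusted p-values of 0.0543 to 0.0697). A related gene, LETM2, gave a difference of 0.37 (95% interval 0.08 to 0.67, adjusted p = 0.245).

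ENSAMXG00000031665 held 4.94, 4.48 and 6.58 CPM in surface controls and 0.272, 0.402 and 0.108 CPM in starved surface fish, the latter from 2, 3 and 1 reads. The Tinaja controls held 4.41, 3.73 and 2.64 CPM and the starved Tinaja libraries 6.48, 9.92 and 4.92 CPM. Again the groups were apart within both populations and in opposite order. The log2 change was -4.32 in surface fish (adjusted p = 0.00289) and 0.99 in Tinaja cavefish (adjusted p = 1). The difference of 5.30 ± 0.614 (adjusted p = 0.00678) rests on 6 reads in the starved surface group.

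In 3 of the 10 genes the response of Tinaja cavefish was called and that of surface fish was not. BAHCC1, whose mammalian protein binds a repressive histone mark on chromatin, held 45.3, 50.6 and 49.6 CPM in Tinaja controls and 83.0, 75.3 and 99.3 CPM in starved Tinaja fish. Surface controls held 135, 139 and 150 CPM and starved surface fish 118, 113 and 130 CPM. The Tinaja groups were apart, the surface groups were apart in the other order, and every surface library was above every Tinaja library. The log2 change was 0.82 in Tinaja cavefish (adjusted p = 0.0137) and -0.23 in surface fish (adjusted p = 0.185), and the difference was 1.05 ± 0.141 (95% interval 0.74 to 1.36, adjusted p = 0.0129). The rise within Tinaja cavefish was not called without Tinaja control 3 (adjusted p = 0.0721) or by limma voom (adjusted p = 0.0986). A second gene of this symbol, ENSAMXG00000042322, gave a difference of -0.35 (95% interval -2.09 to 1.39), with levels from 8.77 to 55.0 CPM within surface fish.

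The other 2 genes were lower in starved than in control Tinaja cavefish. ENSAMXG00000001654 held 79.4, 72.0 and 83.7 CPM in Tinaja controls and 39.0, 44.2 and 44.3 CPM in starved Tinaja fish, against 77.4, 87.3 and 78.5 CPM and 88.4, 87.8 and 87.9 CPM in control and starved surface fish. Starved Tinaja fish were thus the one low group, while the other 9 libraries lay between 72.0 and 88.4 CPM. The log2 change was -0.88 in Tinaja cavefish (adjusted p = 0.00219) and 0.12 in surface fish, and the difference was -1.00 ± 0.117 (adjusted p = 0.00678).

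ENSAMXG00000016415 had no read in the 3 starved Tinaja libraries. The Tinaja controls held 10.7, 7.32 and 7.03 CPM. Surface controls held 19.2, 10.7 and 19.6 CPM and starved surface fish 9.37, 6.83 and 15.7 CPM, and these overlapped. The Tinaja level was 60.9-fold lower in starved than in control fish, with the floor of 3 reads over the starved group (adjusted p = 0.00355). The log2 change in surface fish was -0.63 (adjusted p = 0.311), the difference had an adjusted p of 0.0129, and the ratio of the 2 folds with this floor was 40.5. With limma voom neither the response in Tinaja cavefish (adjusted p = 0.365) nor the difference (adjusted p = 0.189) was called.

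Across all tested genes the difference was centred near 0, with a median of 0.01 on the log2 scale. The SD of the log2 change over genes was 0.581 in surface fish and 0.445 in Tinaja cavefish. For 8405 genes (57.5%) the 95% interval of the difference lay within 2-fold in either direction, and for 4804 (32.8%) within 1.5-fold. For the remaining genes a larger difference between the populations was within the interval. The median standard error was 0.244, so that in a typical gene a modest difference was not detectable with 3 libraries a group.

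**Figure D2:**
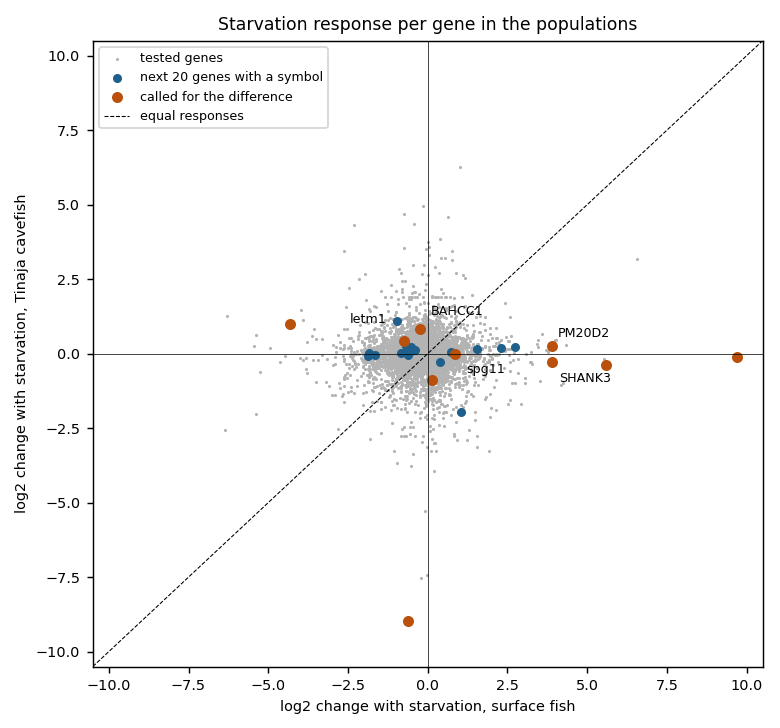
Log2 change from control to starved in surface fish (horizontal axis) against the same change in Tinaja cavefish (vertical axis), 1 point per tested gene. Orange points are the 10 called genes, blue points the next 20 by p that carry a symbol and average at least 1 CPM, grey points the other tested genes, and the dashed line marks equal changes. The 7 called genes with a negative difference lie below the line and the 3 with a positive difference above it. The places of the 3 called genes with a group at 0 reads depend on the prior count of the fit.

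The 20 genes next in order of p that carry a symbol and average at least 1 CPM did not pass the threshold, with adjusted p-values of 0.0572 to 0.151. DESeq2 called all 20. Of these genes, 14 had a positive and 6 a negative difference. The first was ism2b, of the isthmin family of secreted proteins. It held 5.55, 2.85 and 4.80 CPM in surface controls, 44.1, 24.8 and 20.8 CPM in starved surface fish, 30.0, 27.1 and 30.7 CPM in Tinaja controls and 39.5, 35.0 and 27.6 CPM in starved Tinaja fish. Surface controls were the one low group. The difference was -2.53 (95% interval -3.41 to -1.65, adjusted p = 0.0572).

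For slc25a24, a carrier of adenine nucleotides into mitochondria, mean levels were 5.44 and 11.2 CPM in control and starved surface fish and 2.14 and 0.528 CPM in Tinaja cavefish (difference -2.99, adjusted p = 0.0882). The order of control and starved was opposite in the 2 populations, without overlap in either. The Tinaja levels of slc25a24 rest on 44 reads in controls and 12 in starved fish. For pdha1a, a subunit of pyruvate dehydrogenase, the means were 98.6 and 128 CPM in surface fish and 193 and 160 CPM in Tinaja cavefish (difference -0.65, adjusted p = 0.132), again in opposite order. CPS1, the entry enzyme of the urea cycle, held 38.8 and 21.5 CPM in surface fish and 38.4 and 39.3 CPM in Tinaja cavefish (difference 0.88, adjusted p = 0.151). The gene creb3l3l resembles a membrane-bound transcription factor that in mammalian liver acts in fasting. Its means were 3.48 and 0.962 CPM in surface fish and 41.4 and 41.9 CPM in Tinaja cavefish, with a difference of 1.87 (adjusted p = 0.095).

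The gene mtm1, a phosphatase of phosphoinositides, gave means of 36.2 and 23.8 CPM in surface fish and 38.2 and 42.9 CPM in Tinaja cavefish (difference 0.77, adjusted p = 0.0882). BLTP3A, a bridge-like lipid transfer protein, held 50.2 and 15.9 CPM in surface fish and 58.5 and 57.2 CPM in Tinaja cavefish (difference 1.63, adjusted p = 0.0885). The starved surface libraries of BLTP3A, at 11.3 to 23 CPM, were the one low group. ARF5, a small GTPase of the Golgi, gave a difference of 1.79 (adjusted p = 0.132), with means of 7.30 and 1.98 CPM in surface fish and 29.9 and 28.0 CPM in Tinaja cavefish. The 2 other genes called ARF5 gave differences of 0.08 and -0.05. TBC1D10A and EVI5, regulators of Rab GTPases, gave 0.66 (adjusted p = 0.145) and 0.69 (adjusted p = 0.151).

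CBLB, a ubiquitin ligase, gave a difference of 0.93 (adjusted p = 0.101), nedd9, a focal adhesion scaffold, 0.66 (adjusted p = 0.132), and lats1, a kinase of the Hippo pathway, 0.51 (adjusted p = 0.145). SYDE1 held means of 9.46 and 4.87 CPM in surface fish and 4.84 and 10.4 CPM in Tinaja cavefish, in opposite order (difference 2.06, adjusted p = 0.132). ENC1, an actin-binding protein, held 2.57 and 12.8 CPM in surface fish and 4.56 and 5.20 CPM in Tinaja cavefish (difference -2.12, adjusted p = 0.132). The kinase mink1 (0.62) and the sialyltransferase st3gal8 (0.57) both had an adjusted p of 0.145, and zgc:100846 gave -1.38 (adjusted p = 0.124).

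**Figure D3:**
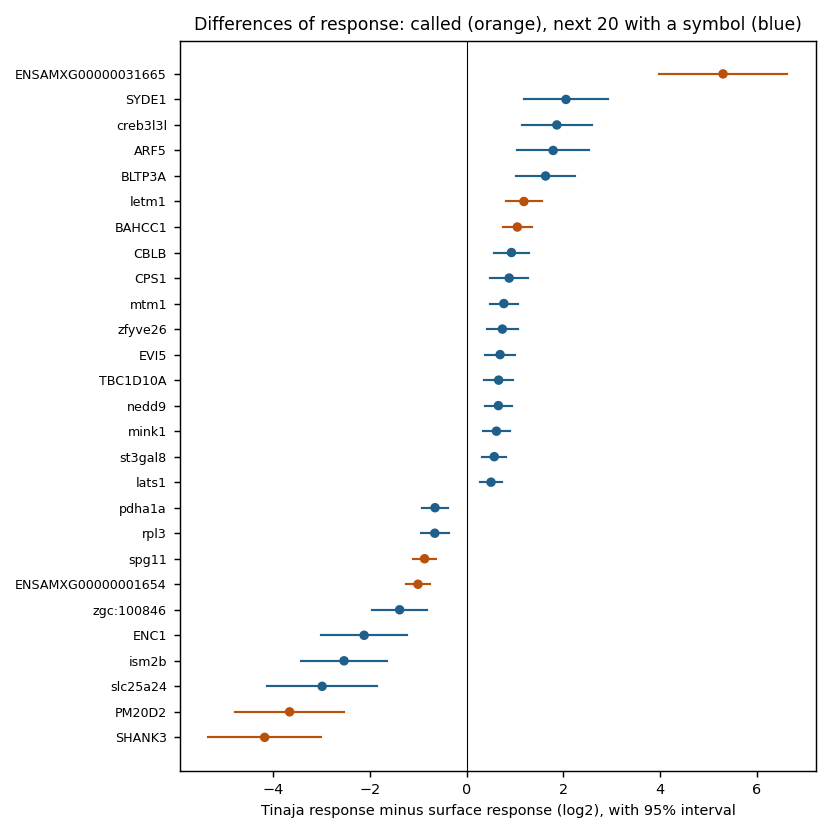
Difference of the starvation response, Tinaja cavefish minus surface fish, on the log2 scale with 95% intervals, for 27 genes: 7 of the 10 called genes and the next 20 by p that carry a symbol and average at least 1 CPM. The 3 called genes with a group at 0 reads are left out because their fitted values depend on the prior count. PM20D2, with 4 reads in surface controls, and ENSAMXG00000031665, with 6 in starved surface fish, are kept. Intervals of letm1 (0.82 to 1.55) and spg11 (-1.11 to -0.63) are narrow, and that of SHANK3 (-5.34 to -3.01) is wide.

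One of the 20 was zfyve26, which encodes spastizin, the partner of spatacsin described above. Its direction was opposite to that of spg11. It held 80.4, 77.5 and 75.4 CPM in surface controls and 54.5, 63.2 and 45.4 CPM in starved surface fish. In Tinaja cavefish the values were 55.0, 55.8 and 52.6 CPM in controls and 64.6, 60.4 and 65.5 CPM in starved fish. The groups were apart in both populations, in opposite order, and the difference was 0.74 (95% interval 0.42 to 1.06, adjusted p = 0.143). Subunits of the AP-5 complex were looked up after these values were seen. The difference was -0.25 (95% interval -0.59 to 0.09) for ap5z1, 0.00 (-0.35 to 0.35) for ap5b1 and 0.60 (-0.88 to 2.08) for ap5s1.

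Gene groups were described by 23 lists that hold 722 tested genes. Some lists had many genes in the count table that were not tested. Among these were granulosa (11 of 26 not tested), ovulation (12 of 32), macrophage and neutrophil (16 of 35) and blood vessel genes (11 of 17). The only called members were spg11 and letm1, 2 of the 10 genes called in all (0.0684% of tested genes). Voom also called 2 list members, of 8 genes in all, and DESeq2 34, of 237 in all (1.62%). The DESeq2 counts given for each list are to be set beside that 1.62%. For each list the count of members with an unadjusted p under 0.05 is given, to be set beside the 8.26% higher and 7.22% lower among all tested genes. In these counts, higher and lower mean a positive and a negative difference of responses, not levels of expression. Medians stand beside those of all tested genes, which were 0.01 for the difference, -0.01 for the change in surface fish and 0.00 for that in Tinaja cavefish. In tissue RNA, fewer cells of a type and less RNA per cell cannot be told apart.

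**Figure D4:**
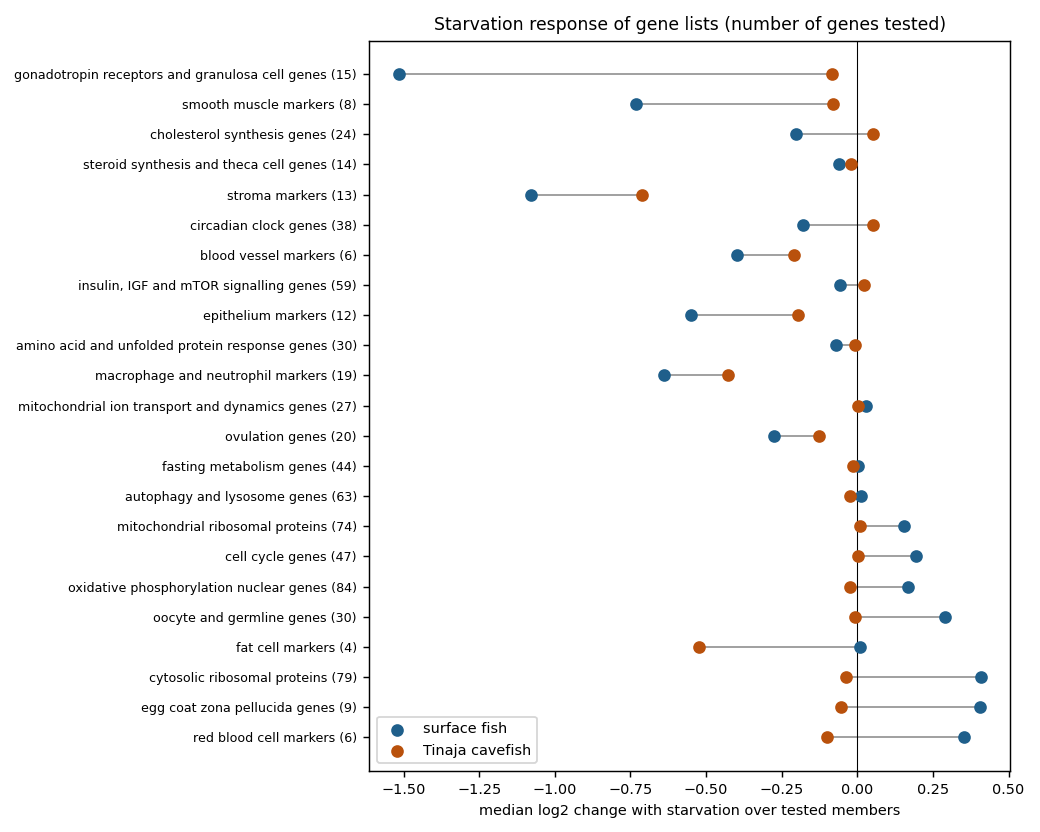
Median log2 change with starvation over the tested members of each of 23 gene lists, with 1 point for surface fish and 1 for Tinaja cavefish joined by a line. For cytosolic ribosomal proteins the surface median is 0.41 and the Tinaja median -0.04, and for granulosa cell genes they are -1.52 and -0.08.

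Oocyte genes had differences below 0. Of 30 tested oocyte and germline genes, 28 had a negative and 2 a positive difference, with 0 called by edgeR and 6 by DESeq2. At an unadjusted p under 0.05, 16 (53.3%) had a negative difference and 0 a positive one. The median was 0.29 for the change in surface fish, -0.01 for that in Tinaja cavefish and -0.29 for the difference. With single libraries left out, the count of 16 ran from 12 to 20. The median difference then ran from -0.35 without Tinaja control 1 to -0.22 without Tinaja control 3. The translational regulator celf1 held 250, 232 and 240 CPM in surface controls and 291, 278 and 293 CPM in starved surface fish, and 204 to 217 CPM in every Tinaja library. Its difference was -0.28 (adjusted p = 0.172). The oocyte RNA-binding protein gene rbpms2b gave -0.52 (adjusted p = 0.172), btg4, which acts in the clearance of maternal messenger RNA, -0.60 (adjusted p = 0.177), and zar1, a maternal-effect gene, -0.54 (adjusted p = 0.22). The growth factors that oocytes send to their follicle were among the members with narrow intervals. The difference was -0.15 (95% interval -0.42 to 0.13) for gdf9 and -0.13 (-0.38 to 0.12) for bmp15.

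Of 9 tested egg coat genes, 5 (55.6%) had an unadjusted p under 0.05, all with a negative difference, and 0 were called by edgeR and 2 by DESeq2. The medians were 0.41 in surface fish, -0.05 in Tinaja cavefish and -0.48 for the difference. The zona pellucida gene zp3c held 445, 393 and 389 CPM in surface controls and 627, 553 and 806 CPM in starved surface fish, with 405 to 478 CPM in the Tinaja libraries. For zp3c the difference was -0.65 (95% interval -1.03 to -0.27, adjusted p = 0.172). For zp2l2 it was -0.68 and for zp3e -0.46.

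Genes of the cytosolic ribosome had the largest share of unadjusted p-values under 0.05 among the 23 lists. Of 79 such genes, 76 had a negative difference, and 64 (81.0%) had an unadjusted p under 0.05, all with a negative difference. EdgeR called 0 and DESeq2 12. The median was 0.41 for the change in surface fish, -0.04 for that in Tinaja cavefish and -0.45 for the difference. In surface fish 77 members had a positive change with starvation. Of the list, 27 were called for such a rise (34.2%, against 1.74% of all genes). The mean log2 CPM over the list was 7.30, 7.10 and 7.17 in surface controls and 7.52, 7.50 and 7.69 in starved surface fish, without overlap. In Tinaja cavefish it was 7.25, 7.28 and 7.52 in controls and 7.16, 7.46 and 7.29 in starved fish, which overlapped. The count of lower members with an unadjusted p under 0.05 was 40 without Tinaja control 3 and 40 without surface starved 3, with medians of -0.34 and -0.38. The member with the smallest p, rpl3, held means of 832 and 1371 CPM in surface fish and 1111 and 1161 CPM in Tinaja cavefish (difference -0.66, adjusted p = 0.145). For rpl6 the difference was -0.50 and for rps16 -0.45, both with an adjusted p of 0.153.

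Mitochondrial ribosomal protein genes gave a smaller median, -0.14, with a negative difference in 61 of 74. At an unadjusted p under 0.05, 6 (8.11%) had a negative difference, a share close to the 7.22% of all genes, and 0 a positive one. Of 84 nuclear genes for oxidative phosphorylation, 75 had a negative difference, with a median of -0.21. At an unadjusted p under 0.05, 21 (25%) had a negative difference and 0 a positive one. DESeq2 called 0 and 1 members of these lists, and edgeR called 0 in each. Expression of ndufs3, of complex I, rose in surface fish (log2 0.37, adjusted p = 0.0288), with -0.05 in Tinaja cavefish and a difference of -0.42 (adjusted p = 0.16). Leaving out Tinaja control 3 lowered the count for oxidative phosphorylation to 10, and leaving out Tinaja starved 1 to 12.

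Cell cycle genes, many of which oocytes store, followed the same order of medians. Of 47 members, 40 had a negative difference and 16 (34.0%) an unadjusted p under 0.05, all lower, with 0 called by edgeR and 6 by DESeq2. Medians were 0.19 in surface fish, 0.00 in Tinaja cavefish and -0.19 for the difference. The mitotic activator cdc20 held 983, 911 and 932 CPM in surface controls and 1260.5, 1176 and 1363 CPM in starved surface fish, where the groups did not overlap. The Tinaja controls held 983, 1092 and 1229 CPM and the starved Tinaja libraries 1019, 1027 and 1116 CPM, which did. Its difference was -0.49 (adjusted p = 0.16). Differences were -0.69 for gmnn, the inhibitor of DNA replication licensing, -0.40 for cyclin gene ccna2 and -0.52 for cyclin gene ccnb2. Without Tinaja starved 1 or surface control 3 the count of lower members was 9, and without Tinaja control 3, surface control 2 or Tinaja starved 2 it was 10.

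**Figure D5:**
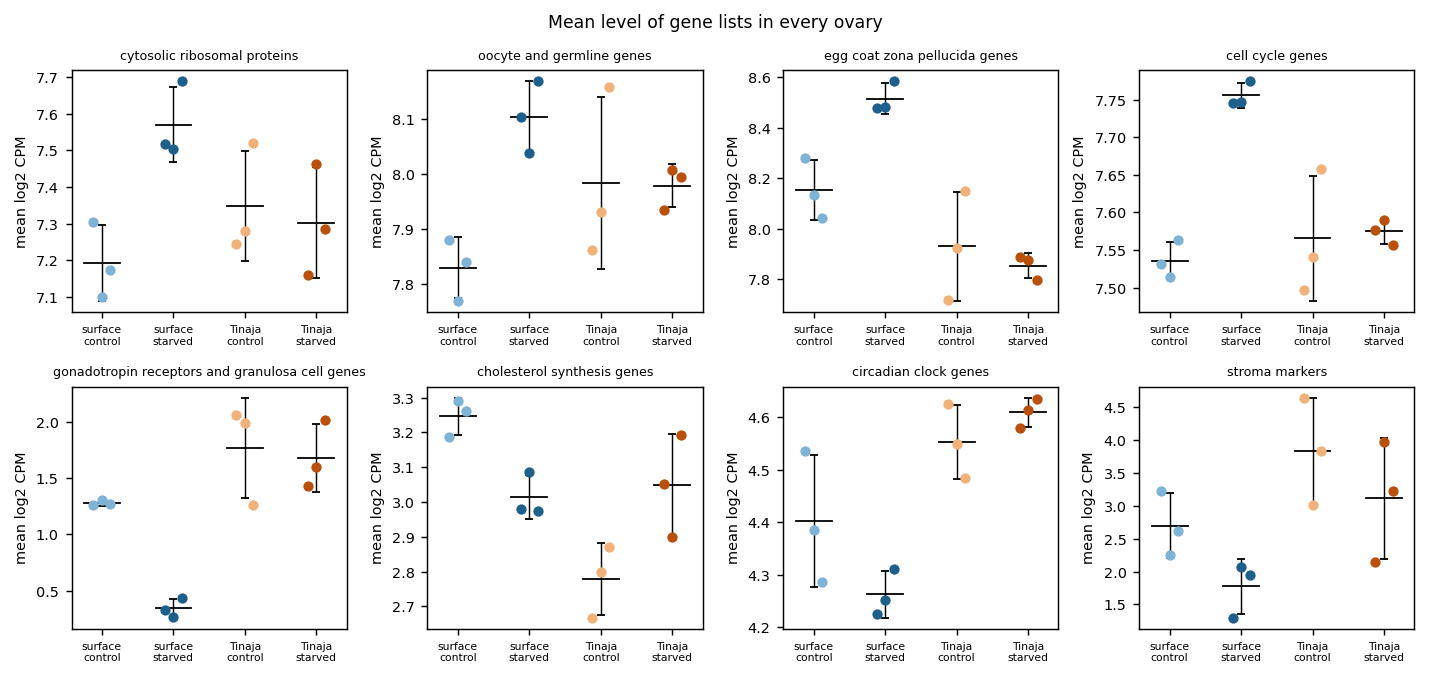
Mean log2 CPM over the tested members of 8 gene lists in each ovary library, with points for libraries and bars for the mean ± SD of 3 libraries in each group. For cholesterol synthesis genes the surface controls lie at 3.19 to 3.29 and the starved surface libraries at 2.98 to 3.09, while the Tinaja controls lie at 2.67 to 2.87 and the starved Tinaja libraries at 2.90 to 3.19.

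In the somatic follicle, most of the tested granulosa cell genes had a positive difference. Of 15 members, including the gonadotropin receptors, 13 had a positive difference and 3 (20%) an unadjusted p under 0.05, all higher, with 0 called by edgeR or DESeq2. Without Tinaja control 3 or surface starved 2 that count was 1. The mean log2 CPM over the list was 1.26, 1.30 and 1.27 in surface controls and 0.33, 0.27 and 0.43 in starved surface fish. In Tinaja cavefish it was 2.06, 1.99 and 1.26 in controls and 1.43, 1.59 and 2.02 in starved fish. The surface groups were far apart and the Tinaja groups overlapped. The median difference was 1.23, and it was 0.53 without Tinaja starved 3. Over the 3 members that average at least 5 CPM it was 0.17, so the median of 1.23 rests mostly on genes below that level.

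The luteinising hormone receptor gene lhcgr held 5.55, 4.75 and 4.25 CPM in surface controls and 2.31, 1.07 and 0.646 CPM in starved surface fish. Tinaja controls held 14.1, 15.1 and 10.1 CPM and starved Tinaja fish 20.1, 7.32 and 16.7 CPM. The fall in surface fish was called (adjusted p = 0.0491), and the difference of 2.04 was not (95% interval 0.74 to 3.34, adjusted p = 0.189). For fshr, the receptor of follicle-stimulating hormone, the difference was 0.36 with an interval of -1.17 to 1.90. The progesterone receptor gene pgr, which acts at ovulation, gave 1.37 (0.26 to 2.49, adjusted p = 0.25). Aromatase, cyp19a1a, was at or near 0 in starved surface fish, and with an interval of -0.92 to 4.96 a difference was not detectable at this depth.

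Steroid synthesis genes gave 3 higher (21.4%) and 1 lower (7.14%) of 14 at an unadjusted p under 0.05, with 0 called by edgeR or DESeq2. The 3 of smallest p were cyp11a1.1, hsd3b2 and cyp17a1, enzymes of the route from cholesterol to sex steroids. Their differences were 2.88, 2.35 and 2.35, at levels of 0.108 to 1.36 CPM in surface fish. In the list, 8 members had a positive and 6 a negative difference. Its median was 0.34, 0.0089 without Tinaja starved 2 and -0.28 over the 9 members that average at least 5 CPM, so that its sign depended on the filter. Ovulation genes gave 4 higher (20%) and 2 lower (10%) of 20 with a median of 0.03, 10 differences above 0 and 10 below (0 called by edgeR, 1 by DESeq2).

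Of 24 genes of cholesterol synthesis, 19 had a positive difference and 5 (20.8%) an unadjusted p under 0.05, all higher: hmgcra, msmo1, mvk, cyp51 and SCAP. EdgeR and DESeq2 each called 0. The count was 2 without Tinaja starved 3 and 3 without surface starved 3. The mean log2 CPM over the list was 3.19, 3.29 and 3.26 in surface controls and 2.98, 3.09 and 2.98 in starved surface fish. It was 2.67, 2.80 and 2.87 in Tinaja controls and 3.05, 2.90 and 3.19 in starved Tinaja fish. In this mean, control and starved were apart in both populations and in opposite order. Their summed levels overlapped in both. The sums were 540 to 580 CPM in surface controls and 520 to 554 CPM in starved surface fish. In Tinaja cavefish they were 466 to 504 CPM in controls and 453 to 510 CPM in starved fish. The median difference was 0.52, and 0.16 over the 14 members that average at least 5 CPM. Of these 14, 1 was higher at an unadjusted p under 0.05. The gene of the rate-limiting enzyme, hmgcra, held 3.74, 1.90 and 2.74 CPM in surface controls and 1.22, 1.61 and 1.83 CPM in starved surface fish. In Tinaja controls it had 1 read in all, and 0.259, 0.496 and 0.492 CPM in starved Tinaja fish, so its difference of 3.56 (adjusted p = 0.189) rests on few reads. For msmo1, an enzyme of the later steps, levels were 1.03, 1.29 and 1.61 CPM in Tinaja controls and 3.24, 1.98 and 2.63 CPM in starved Tinaja fish (difference 1.64, adjusted p = 0.241).

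Circadian clock genes gave 7 higher (18.4%) and 1 lower (2.63%) of 38 at an unadjusted p under 0.05, with 0 called by edgeR and 2 by DESeq2. The activator clockb held 57.9, 80.6 and 71.3 CPM in surface controls and 48.1, 43.5 and 37.8 CPM in starved surface fish, and 31.6 to 38.7 CPM in every Tinaja library. Its difference was 0.82 (95% interval 0.43 to 1.22, adjusted p = 0.151). The clock activator arntl2 held 29.3, 30.1 and 31.9 CPM in Tinaja controls and 35.2, 45.2 and 40.2 CPM in starved Tinaja fish. Surface libraries held 87.2, 92.1 and 98.0 CPM in controls and 81.3, 83.5 and 70.9 CPM when starved (difference 0.64, adjusted p = 0.151). The clock output gene tefb gave 0.50 (adjusted p = 0.157), and the repressor per2 gave 0.01 with an interval of -0.55 to 0.57. The list's median was 0.27, and 0.10 without surface control 1. Time of day of sampling is not given in the labels.

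Nutrient signalling genes lay closer to the background. Of 59 genes of insulin, IGF and mTOR signalling, 6 (10.2%) were higher and 2 (3.39%) lower at an unadjusted p under 0.05, with a median of 0.13 and 0 called by edgeR or DESeq2. The median was 0.013 without surface control 2. The higher count was 3 without surface control 2, Tinaja control 3 or Tinaja starved 1, and 10 without Tinaja control 1. The central kinase mtor held 303 to 378 CPM in surface fish and 256 to 273 CPM in Tinaja cavefish, and its difference of -0.12 had an interval of -0.31 to 0.08. The insulin receptor gene insra gave 0.13 (-0.18 to 0.44). IRS1, an adaptor of the receptor, gave 0.69 (0.28 to 1.1, adjusted p = 0.176) and eif4ebp3l, which resembles repressors of translation under mTOR control, 0.76 (0.27 to 1.25, adjusted p = 0.189). The leptin receptor gene lepr held 19.0, 24.7 and 21.7 CPM in surface controls and 9.51, 11.6 and 12.3 CPM in starved surface fish. In Tinaja cavefish it held 28.5, 30.4 and 23.1 CPM in controls and 27.3, 22.6 and 29.7 CPM in starved fish, with a difference of 0.92 (0.42 to 1.42, adjusted p = 0.16).

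Fasting metabolism genes had a share under the background: 2 of 44 (4.55%) were higher and 0 lower. The medians were 0.00 in surface fish, -0.01 in Tinaja cavefish and 0.03 for the difference (0 called by edgeR or DESeq2). ACACB, an acetyl-CoA carboxylase that limits fatty acid oxidation, gave 0.88 (adjusted p = 0.193), and cpt1aa, of the carnitine shuttle into mitochondria, 0.74 with an interval of -0.59 to 2.07. Of 63 autophagy and lysosome genes, 8 (12.7%) were higher and 5 (7.94%) lower, with a median of -0.05. Besides spg11, DESeq2 called 2 of them. The autophagy kinase gene ULK2 held 21.7, 31.5 and 23.3 CPM in surface controls and 12.6, 14.3 and 14.9 CPM in starved surface fish, with a difference of 1.07 (adjusted p = 0.153). Genes of the amino acid and unfolded protein responses gave 4 higher and 4 lower of 30 (13.3% each, 0 called by edgeR or DESeq2). Mitochondrial ion transport and dynamics genes gave 3 higher (11.1%) and 4 lower (14.8%) of 27, with medians of 0.05 and 0.04 for the 2 lists. The uniporter gene mcu of the latter list gave -0.68 (adjusted p = 0.249), opposite in sign to letm1.

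Markers of other cell types were followed because the groups could differ in tissue makeup. Stroma markers gave 0 of 13 at an unadjusted p under 0.05, with medians of -1.08 in surface fish, -0.71 in Tinaja cavefish and 0.32 for the difference. That last median turned to -0.19, -0.17 and -0.08 without Tinaja starved 2, surface control 1 and surface starved 1, and was 0.86 without Tinaja control 1. Their summed level was 398 to 513 CPM in surface controls, 380 to 469 in starved surface fish, 449 to 929 in Tinaja controls and 345 to 660 in starved Tinaja fish. The sums thus overlapped within both populations. The mean log2 CPM of the markers did not overlap in surface fish, at 1.30 to 2.08 when starved against 2.25 to 3.23 in controls. In Tinaja cavefish it did, at 2.15 to 3.98 against 3.02 to 4.65. Smooth muscle markers gave 1 of 8 higher, macrophage and neutrophil markers 1 of 19 lower, blood vessel markers 1 of 6 lower, epithelium markers 2 higher and 1 lower of 12, and fat cell (4) and red blood cell (6) markers 0. None was called by edgeR or DESeq2. Of the defining markers in the count table, krt8 and CLDN3 of epithelium, MFAP4 of macrophages and lepa of fat had 0 reads in all 12 libraries. Starved surface fish were below surface controls in summed granulosa level (28.2 to 36.2 against 42.4 to 45.6 CPM). They were above them in summed oocyte level (14029 to 15393 against 11040 to 12149 CPM). The summed level of steroid synthesis and theca cell genes was also above that of controls (590 to 657 against 503 to 566 CPM), opposite to the granulosa sum. The mean log2 CPM over the same steroid and theca list went the other way. It was 2.51, 2.53 and 2.48 in starved surface fish against 2.71, 2.87 and 2.79 in surface controls, lower as in the granulosa list. The part of these shifts in the differences given above was not tested.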

How the data were processed

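Raw read counts per gene were deposited by the authors for every library, beside a scaled signal table with fewer genes. STAR 2.7.10b and RSEM are named in the submitters' processing notes, which give no role for either. Libraries were directional and depleted of ribosomal RNA, per the labels' protocols. The build, annotation and strand option behind the counts are not stated in those sources, and overlapping, antisense and near-identical genes are therefore uncertain. The deposited signal values equal edgeR's CPM with TMM factors (largest relative difference 4.97e-15). Whole reads were recovered from 100% of those values (tolerance 0.001). They equal the deposited counts throughout, so testing them called the same 10 genes. Unmapped (7.28% to 10.1%), multimapping (9.91% to 16.8%), no-feature (14.1% to 17.9%) and ambiguous reads (0.276% to 0.368%) name no gene and were left out.

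The deposited counts went into edgeR 4.0.16 (R 4.3.3): TMM scaling, quasi-likelihood fitting with robust estimation over the 12 libraries, a mean for each group, 8 residual degrees of freedom, F tests, and Benjamini-Hochberg adjustment over 14627 genes. The common biological coefficient of variation was 0.191. SEs are approximate (log2 value over the root of F), and 95% intervals use the fit's t distribution. Floors are 3 reads over the group at 0 and cover the counting error of that group only. Folds against a floor leave out the error of the other groups. Alternatives used DESeq2 1.42.0 without independent filtering, limma 3.58.1 voom, other scalings and filters, thinned libraries, a replicate block and leaving out libraries.

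Named genes are all called genes, the next 20 by p with a symbol and a mean of at least 1 CPM, up to 3 members of smallest p per list, and chosen key genes whatever their result. The AP-5 genes and the second copies of named symbols were added after their values were seen. The contrast, lists and key genes were chosen with earlier results of these data known.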

Additional observations from a re-analysis of the deposited data

Results flagged for a closer look

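Each of the 10 genes named in the report was picked out because the test of the difference between the 2 populations' responses itself passed its threshold. The fitted log2 difference, Tinaja cavefish minus surface fish, was -4.17 for SHANK3, -0.87 for spg11, 1.05 for BAHCC1 (ENSAMXG00000016074), -3.66 for PM20D2 and 1.19 for letm1. Among the genes without a symbol it was 5.30 for ENSAMXG00000031665 and -1.00 for ENSAMXG00000001654. For ENSAMXG00000032655 (-9.81), ENSAMXG00000016415 (-8.34) and ENSAMXG00000038070 (-5.97) a group had 0 reads, so the fitted value depends on the prior count. The folds against a floor in the report stand in its place.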

How the results depend on the processing

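The number of genes called for the difference was 10. It was 237 with DESeq2 and 8 to 52 when single libraries were left out. With Tinaja control 1 and Tinaja starved 2 both left out it was 33. Other scalings, filters, thinning and voom gave 8 to 12. Recovered reads equal the deposited counts, so that setting, counted among the 23 alternatives, could only repeat the main result. The cause of the larger counts was not tested. No called gene changed direction under an alternative. Of the 10 genes, 6 kept their call in every alternative in which they were tested. The other 4 were not called under some: ENSAMXG00000016415 with voom (adjusted p = 0.189), PM20D2 in 6 alternatives (0.0511 to 0.189), letm1 in 6 (0.0543 to 0.0697) and ENSAMXG00000038070 in 11 (0.0527 to 0.191). For PM20D2 these were voom and leaving out surface control 3, Tinaja control 2 or 3, or Tinaja starved 2 or 3. For letm1 they were the replicate block and leaving out surface control 2 or 3, Tinaja control 2 or 3, or Tinaja starved 3. The median difference over all genes was at most 0.01 under the other scalings, and no list median changed sign under them. Under other alternatives the median difference of 12 of the 23 lists changed sign. At a mean of at least 5 CPM, fewer members were left. There the medians of steroid synthesis (-0.28, 9 members), stroma (-0.20, 7), blood vessel (-0.81, 3) and ovulation (-0.09, 11) genes changed sign. The red blood cell value (0.89) did so too, but it is that of 1 gene, the only member left. Medians near 0 crossed it under 8 alternatives for fasting metabolism, 5 for ovulation, 3 for autophagy and lysosome, 2 for the amino acid and unfolded protein responses and 1 for mitochondrial ion transport genes. Among the markers of other cell types, macrophage medians changed sign under 7, epithelium under 5, stroma under 4, and blood vessel and fat cell under 3 each. The stroma and blood vessel counts include the filter at 5 CPM. Blood vessel medians also changed sign without surface control 1 (-0.05) and without Tinaja starved 3 (-0.04). The 11 lists without a sign change include the ribosomal, oxidative phosphorylation, oocyte, egg coat, cell cycle, granulosa, cholesterol, clock and insulin lists.

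With the replicate number as a block, 10 genes were called, 8 of them among the 10 without it. No label says whether equal numbers mark paired samples. Deviations from the group means of same-numbered libraries correlated at -0.311 to 0.0826 over 18 pairs. Those of differently numbered libraries did so at -0.11 to 0.303 over 36 pairs. With 3 libraries a group, these values cannot settle whether samples were paired. Depth limits genes at a few reads, where 3 reads equal 0.323 to 0.492 CPM.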
